A study of Arabidopsis thaliana with 16 samples.

Results

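The transcripts of 10 Arabidopsis genes for catalases, peroxidases and superoxide dismutases were followed in rosette leaves that had been in space or had stayed on the ground. They were chosen by gene: a probe set of the ATH1 array counted when its annotation named CAT1 (AT1G20630), CAT2 (AT4G35090), CAT3 (AT1G20620), APX1 (AT1G07890), APX2 (AT3G09640), CSD1 (AT1G08830), CSD2 (AT2G28190), FSD1 (AT4G25100), 2-Cys Prx A (AT3G11630) or 2-Cys Prx B (AT5G06290). Each gene had 1 probe set naming it alone, so 10 of 22810 probe sets were followed. CAT1 and CAT3 are next to each other in the RefSeq gene order.

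There were 16 arrays, 2 for each of 8 groups: plants of FG or WT, under the SD (8 h light, 16 h dark) or the LD (16 h light, 8 h dark), in space (sp) or on the ground (gr). FG is a line made by genetic cross that carries pHSP::FT and pHSP:GFP, in which the heat-inducible HSP17.4 promoter drives FT and GFP, and WT is Col-0. Plants were raised for 20 days before the flight, which lasted about 12 days and 15 h. FG and WT plants under the SD, in space and on the ground alike, were also heat-shocked during the flight, so SD against LD cannot be told apart from heated against unheated. Every treatment gave 4 leaves from 2 plants, all space plants came from 1 flight unit and all controls from 1 ground unit, and space leaves were taken after landing, so space cannot be told apart from unit, handling or time of harvest. The p-values measure only the spread between 2 arrays a group. In bulk leaf RNA, fewer cells of a type and less RNA per cell cannot be told apart either.

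Leaves make superoxide and hydrogen peroxide when chloroplasts absorb more light than they use, and hydrogen peroxide in peroxisomes during photorespiration. Superoxide dismutases turn superoxide into hydrogen peroxide, catalases break it down in peroxisomes, ascorbate peroxidases remove it with ascorbate, and 2-Cys peroxiredoxins remove it in chloroplasts with thiols. Arabidopsis can make superoxide dismutases that carry copper and zinc, CSD1 in the cytosol and CSD2 in chloroplasts, or ones that carry iron, such as FSD1. When copper is short in Arabidopsis, FSD1 is known to be raised and the copper enzymes lowered.

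Signals are MAS 5.0 values on a linear scale, which the authors had scaled to a common mean, and each call reads a probe set as present, marginal or absent. Present calls numbered 12560 to 13722 on space arrays and 11759 to 13042 on ground arrays. The 3′ minus 5′ log2 signal of GAPDH, a measure of RNA length, was 0.12 to 1.14 in space and 1.12 to 1.75 on the ground. The replicate spread over all probe sets was 0.28 to 0.40 log2 units in space and 0.55 to 0.74 on the ground, and bacterial spike-in signals averaged 11.06 to 11.25 in space against 11.51 to 11.94 on the ground. The part of these values in the results was not tested. The FT probe set had present calls in FG only, on 6 of 8 FG arrays (8.3 to 206 in space, 178 to 812 on the ground), and was absent on all 8 WT arrays (28.2 to 61.2 in space, 4.25 to 31.5 on the ground). Of 9 leaf marker probe sets, 9 were present on every space array and 8 on every ground array, and their summed signal was 67583 to 131644 in space and 15916 to 97832 on the ground. Of 9 root marker probe sets, 8 were present on no array, among them the root hair gene RHS19 and root peroxidases. Of 8 flower organ marker probe sets, 5 were present on no array, among them AP3 and SEP3, and 1 of the 2 tested was called: SEP2 in FG under the SD, with a log2 fold change of 1.79 ± 0.16 (SE, adjusted p = 0.00136), space over ground, a call that ended with only the arrays compared (adjusted p = 0.191). In FG under the SD 0.917% of all probe sets were called. The 1 root marker tested was not called.

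Fold changes were taken on log2 signals with values under 75 raised to 75 and tested with limma in a fit that took in the 16 arrays together. Calls required both a 2-fold difference and an adjusted p under 0.05 over 14286 probe sets. Of the 10 genes, 9 passed the filter on low signals. The gene left out is APX2, a cytosolic ascorbate peroxidase known to be induced by strong light and heat. APX2 was absent on all 16 arrays, with signals of 1.26 to 53.7 in space and 4.49 to 39.1 on the ground, so it was not detected and has no fold change.

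**Figure D1:**
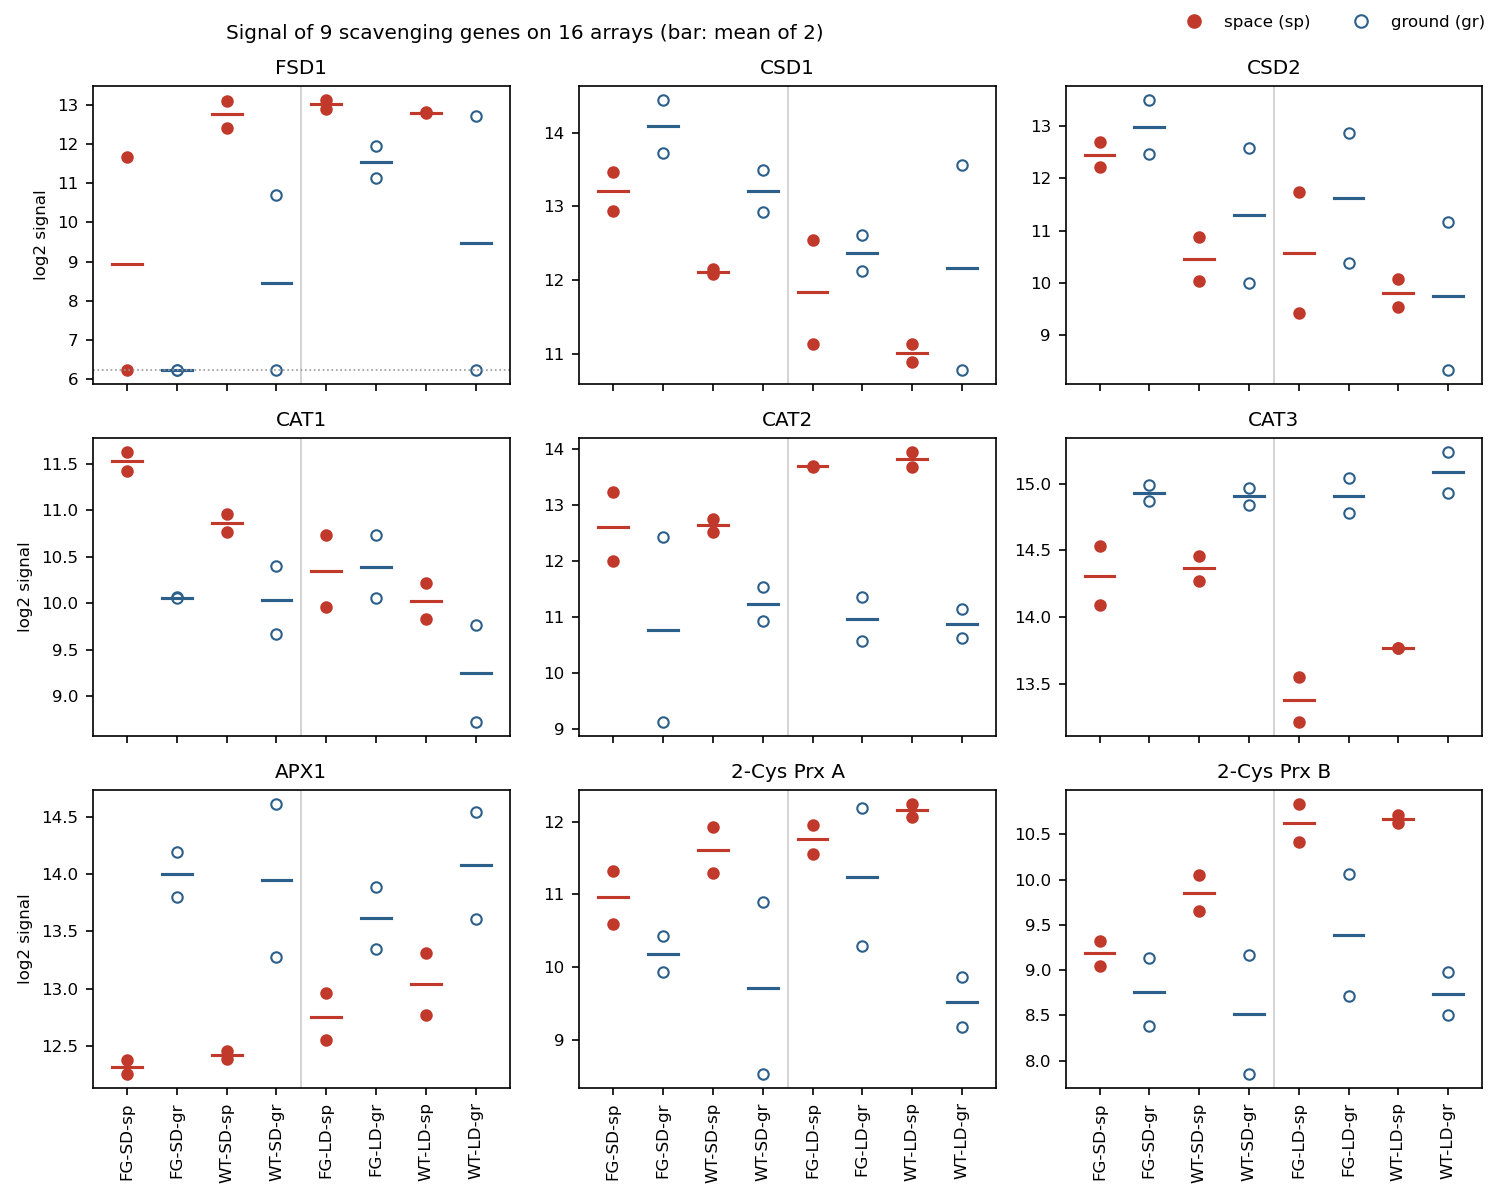
Log2 signal (vertical axis) of the 9 tested genes in each of the 8 groups, with 1 point per array and a bar at the mean of 2 arrays; filled points are space arrays, open points ground arrays, and the dotted line in the FSD1 panel is the log2 of the floor of 75. CAT2 is higher and CAT3 and APX1 are lower in space than on the ground under the LD, and FSD1 lies at the floor on 5 arrays.

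With both genotypes averaged, the calls fell on CAT2, CAT3 and both 2-Cys peroxiredoxins under the LD, and on APX1 and CAT1 under the SD. None of the 9 genes was called for a difference in response between daylengths, so these calls do not show one. In FG under the LD, 2 of 9 genes were called, CAT2 higher and CAT3 lower, where 14.0% of all probe sets were called, 9.46% higher and 4.49% lower. In WT under the LD, 4 of 9 were called (CAT2, 2-Cys Prx A and 2-Cys Prx B higher, CAT3 lower), where 16.7% of all were called, 10.9% higher and 5.79% lower. With both genotypes averaged, 4 of 9 were called under the LD, the same 4 genes, against 20.8% of all (13.5% higher, 7.24% lower). No gene was called under the SD in FG, where 0.917% of all probe sets were, or in WT, where 1.87% were, and at an unadjusted p under 0.05 and 2-fold there were 3 in FG, where 8.20% of all probe sets passed that rule, and 3 in WT, where 10.9% did. The methods' t-test, at an unadjusted p, called 2 in FG (3.39% of all) and 1 in WT (5.26% of all) under the SD. With both genotypes averaged under the SD, 2 of 9 were called, CAT1 higher and APX1 lower, against 5.51% of all (3.43% higher, 2.08% lower). The median log2 fold change of the 9 genes was 0.89 under the SD and 0.37 under the LD, beside 0.08 and 0.08 over all probe sets. Scaling sets the balance of directions: with both genotypes averaged, 62.3% of calls under the SD and 65.1% under the LD were higher in space, against 43.3% and 40.8% with arrays centred on their median and 95.1% and 90.6% with scaling to the spike-ins, which moved the median of all probe sets to 0.58 and 0.57.

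**Figure D2:**
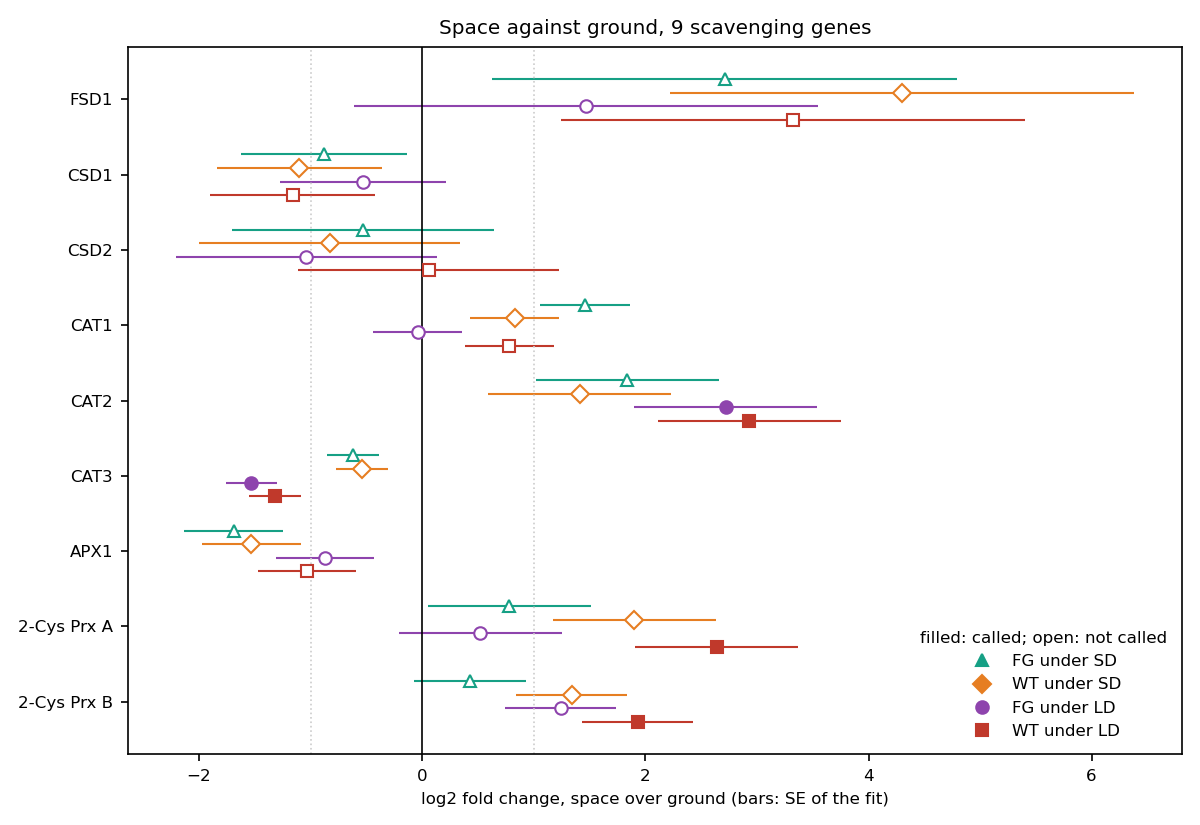
Log2 fold change of space over ground (horizontal axis) for each of the 9 genes, with symbols for genotype and daylength and bars for the standard error of the fit (2 arrays a group); filled symbols were called. CAT2 and CAT3 lie on opposite sides of 0 in all 4 comparisons, and the bars of FSD1 are the widest, 2.08 to either side.

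FSD1, the iron superoxide dismutase, was either strong or not detected. Under the SD its signals in space were 3233 and 13.9 in FG and 8794 and 5432 in WT, against 1.42 and 48.9 in FG and 1652 and 3.53 in WT on the ground. Under the LD they were 8939 and 7657 in FG and 7030 and 7146 in WT in space, against 2252 and 3961 in FG and 6697 and 23.7 in WT on the ground. FSD1 was thus present on 7 of 8 space arrays and on 4 of 8 ground arrays, and in FG-SD-sp, WT-SD-gr and WT-LD-gr only 1 of the replicates was present.

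The fitted log2 fold change of FSD1, space over ground, was 4.30 ± 2.08 in WT under the SD (SE, adjusted p = 0.286), 1.47 ± 2.08 in FG under the LD (adjusted p = 0.682) and 3.32 ± 2.08 in WT under the LD (adjusted p = 0.287). Both WT values are bounds (at least), since 1 ground array of each had an absent call and was set to the floor. In FG under the SD the fitted value was 2.71 ± 2.08 (adjusted p = 0.582), which is neither exact nor a bound, since both ground arrays and 1 space array were absent, and it is 0.00 without FG-SD-sp replicate 1, the array with the signal of 3233. None of these was called. The space arrays lay above the ground arrays in the other 3 comparisons. There, 47.6% (WT, SD), 62.4% (FG, LD) and 61.9% (WT, LD) of all probe sets did not overlap in either direction. The pooled standard deviation between replicates was 1.94 log2 units in space and 2.80 on the ground.

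CSD1, the cytosolic copper/zinc enzyme, was detected on every array. In SD plants its signals were 7876 and 11350 in FG and 4315 and 4541 in WT in space, against 13534 and 22319 in FG and 7739 and 11600 in WT on the ground. In LD plants the signals were 2241 and 5966 in FG and 2242 and 1897 in WT in space, against 6263 and 4466 in FG and 1753 and 12069 in WT on the ground. Within each genotype the space arrays lay below the ground arrays under the SD, and the groups overlapped under the LD. Under the SD 43.2% of all probe sets in FG and 47.6% in WT were apart in either direction.

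The log2 fold change of CSD1, space over ground, was -0.99 ± 0.52 under the SD (SE, adjusted p = 0.251) and -0.84 ± 0.52 under the LD (adjusted p = 0.235) with both genotypes averaged. Neither was called. A single array decided the value under the LD: without WT-LD-gr replicate 1, where CSD1 was 1753, the averaged log2 fold change was -1.54 (adjusted p = 0.0142) and that of WT -2.55 (adjusted p = 0.0205), and without WT-LD-gr replicate 2 that of WT was 0.23.

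CSD2, the chloroplast copper/zinc enzyme, spread over a wide range within groups. Under the SD its signals were 4735 and 6642 in FG and 1889 and 1054 in WT in space, against 5659 and 11662 in FG and 1024 and 6181 in WT on the ground. Under the LD they were 687 and 3409 in FG and 745 and 1077 in WT in space, against 7445 and 1337 in FG and 321 and 2307 in WT on the ground. Space and ground overlapped for CSD2 in all 4 comparisons. Its averaged log2 fold change was -0.68 ± 0.82 under the SD (SE, adjusted p = 0.639) and -0.49 ± 0.82 under the LD (adjusted p = 0.677), smaller than its standard error.

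The copper enzymes moved together from array to array, and FSD1 moved against CSD1. Of all tested probe sets naming 1 gene, the one most like CSD1 over the 16 arrays was CCS (AT1G12520), the chaperone that loads copper into CSD1 and CSD2 (Pearson r = 0.874 on log2 signals), followed by CSD2 (r = 0.85) and the transcription factor gene BZIP9 (AT5G24800, r = 0.829). CCS was also the most alike to CSD2 (r = 0.896), followed by CSD1 and the cold-regulated gene AT5G42900 (r = 0.828). These are descriptions over 16 arrays that share groups and scaling. Between the replicates of a group, CSD1 and CSD2 differed in the same direction in 6 of 8 groups. FSD1 differed against CSD1 in 7 of 8 groups and against CSD2 in 5 of 8, the remaining group for CSD1 being FG-SD-gr, where FSD1 was absent on both arrays. These counts take in differences near 0, such as 0.02 log2 units for FSD1 in WT-LD-sp and 0.07 for CSD1 in WT-SD-sp.

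**Figure D3:**
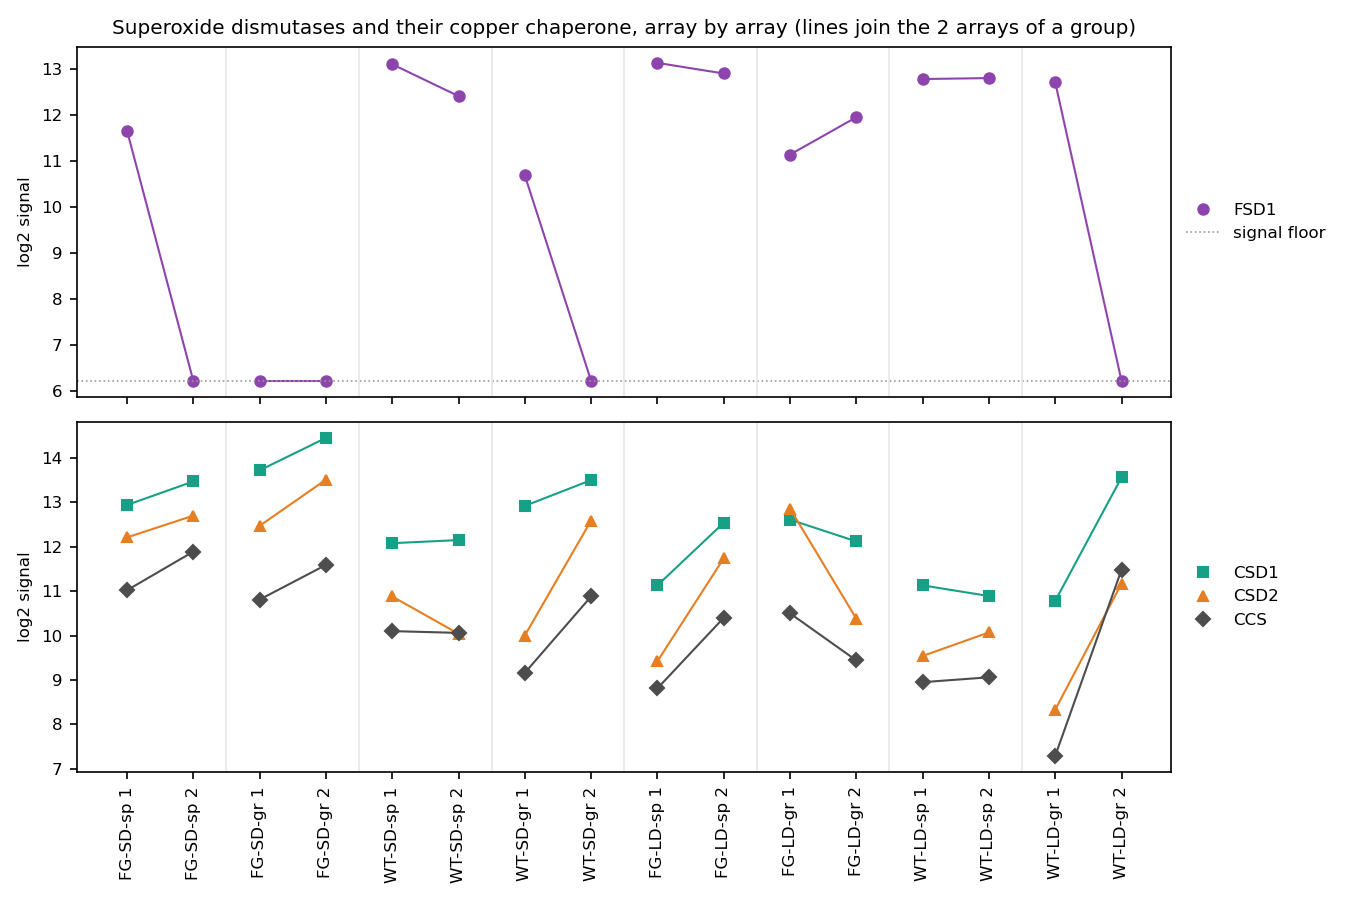
Log2 signal (vertical axis) of FSD1 (upper panel) and of CSD1, CSD2 and their copper chaperone CCS (lower panel) on each of the 16 arrays, with a line joining replicates 1 and 2 of a group and a dotted line at the log2 of the floor of 75. In WT-LD-gr and WT-SD-gr, FSD1 drops to the floor in replicate 2, where CSD1, CSD2 and CCS are higher than in replicate 1.

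WT-LD-gr is an example. Replicate 2 minus replicate 1, FSD1 had a log2 value of -6.48 or below, a bound since it was absent in replicate 2, while CSD1 differed by 2.78, CSD2 by 2.84 and CCS by 4.19. CCS had 157 and 2851 there and 494 and 533 in WT-LD-sp. The averaged log2 fold change of CCS, space over ground, was 0.16 ± 0.78 under the SD (SE, adjusted p = 0.934) and -0.37 ± 0.78 under the LD (adjusted p = 0.744). In all 4 genes the 2 arrays of WT-LD-gr were thus further apart than WT-LD-sp and WT-LD-gr were on average.

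From the list of copper and iron homeostasis genes, 26 genes long, 23 were on the array and 17 were tested. None was called with both genotypes averaged under the SD, and under the LD 4 rose and 2 fell, with a median log2 fold change of -0.10 under the SD and 0.40 under the LD beside 0.08 and 0.08 over all probe sets. Calls over all probe sets were 5.51% under the SD, and 13.5% higher and 7.24% lower under the LD. COPT2, a copper transporter of the plasma membrane, had 47.0 and 39.3 in FG and 35.7 and 52.2 in WT in space under the SD, against 44.4 and 73.8 in FG and 13.1 and 61.5 in WT on the ground, all under the floor of 75. Under the LD COPT2 had 841 and 433 in FG and 573 and 660 in WT in space, against 24.3 and 64.9 in FG and 115 and 37.5 in WT on the ground. Its log2 fold change under the LD was at least 3.01 in FG (adjusted p = 3.37e-04), since no FG ground array had a present call. In WT it was 2.73 ± 0.30 (SE, adjusted p = 4.32e-04), also a bound (at least), since 1 ground array was absent and set to the floor. COPT2 under the LD was thus well above the floor on all 4 space arrays and near or under it on all 4 ground arrays.

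Other called members of that list under the LD were PETE2, a plastocyanin, which carries copper in photosynthesis, with a log2 fold change in WT of 2.49 ± 0.56 (SE, adjusted p = 0.0127), and the plantacyanin gene ARPN, with -1.58 ± 0.40 in WT (adjusted p = 0.0213). FRO3, a mitochondrial ferric reductase, had -1.47 ± 0.30 in FG (adjusted p = 0.00995). With only the arrays compared, the WT calls of PETE2 (adjusted p = 0.0553) and ARPN (adjusted p = 0.104) ended, and both also ended with the methods' t-test. That of ARPN ended too with log2(signal + 32) (adjusted p = 0.0693) and with no filter (adjusted p = 0.0544). The call of PETE2 in WT ended without WT-LD-gr replicate 1 or either WT-LD-sp array (adjusted p up to 0.0855), that of ARPN in WT without WT-LD-gr replicate 2 or either WT-LD-sp array (up to 0.128), and that of FRO3 in FG without FG-LD-gr replicate 2 or FG-LD-sp replicate 2 (up to 0.0783).

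Among the catalases, mean signals of CAT2 were higher and those of CAT3 lower in space in all 4 comparisons, and both differences were called under the LD. CAT2 is the main catalase of photosynthetic leaves, where it removes the hydrogen peroxide of photorespiration. In SD plants its signals were 9627 and 4106 in FG and 6946 and 5909 in WT in space, against 5503 and 561 in FG and 1962 and 2968 in WT on the ground. In LD plants the signals were 13281 and 13202 in FG and 15972 and 13163 in WT in space, against 1531 and 2637 in FG and 1587 and 2277 in WT on the ground. Under the LD every space array lay above every ground array, and in FG under the SD space and ground overlapped. Space and ground were apart under the LD, in either direction, for 34.2% of all probe sets.

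The log2 fold change of CAT2, space over ground, was 2.72 ± 0.82 in FG (SE, adjusted p = 0.0456) and 2.93 ± 0.82 in WT (adjusted p = 0.0307) under the LD, and 2.83 ± 0.58 with both averaged (adjusted p = 0.004), a 7.09-fold difference. Leaving out any 1 array kept the averaged call. The call in FG ended without any 1 of 14 arrays, all but the FG-SD-gr arrays (adjusted p up to 0.183), and that in WT without any 1 array of FG-LD-sp, WT-LD-gr, WT-LD-sp or WT-SD-sp (adjusted p up to 0.136). Under the SD the averaged value was 1.62 ± 0.58 (adjusted p = 0.1), and without FG-SD-gr replicate 1, where CAT2 was 5503, it was 2.45 (adjusted p = 0.00687).

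CAT3, the second leaf catalase, gave strong signals everywhere and the smallest replicate spread of the 9 genes, with a pooled standard deviation of 0.18 log2 units. Under the SD its signals were 23688 and 17410 in FG and 19790 and 22569 in WT in space, against 32584 and 29993 in FG and 32086 and 29394 in WT on the ground. Under the LD they were 11956 and 9490 in FG and 13934 and 13941 in WT in space, against 28149 and 33653 in FG and 31314 and 38718 in WT on the ground. Within each daylength every space array lay below every ground array, and the LD space arrays lay lowest. Space and ground were apart, in either direction, for 15.4% of all probe sets under the SD and 34.2% under the LD.

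The log2 fold change of CAT3, space over ground, was -1.53 ± 0.23 in FG (SE, adjusted p = 0.00246) and -1.32 ± 0.23 in WT (adjusted p = 0.00401) under the LD, and -1.43 ± 0.16 with both averaged (adjusted p = 1.62e-04). Leaving out any 1 array ended none of these calls. With spike-in scaling the averaged value was -0.87 and the WT value -0.68, and with quantile normalization the WT value was -0.87, each under 2-fold. Under the SD the averaged value was -0.58 ± 0.16 (adjusted p = 0.047), past the p threshold and under 2-fold, and with spike-in scaling it was -0.03, with that of WT at 0.06.

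The genes most like CAT2 over the 16 arrays were SHM1 (AT4G37930), the serine hydroxymethyltransferase of photorespiration (r = 0.98), RCA (AT2G39730), rubisco activase (r = 0.975), and AT1G71350, a translation initiation factor of the SUI1 family (r = 0.941). SHM1 under the LD had 12872 and 13771 in FG and 12914 and 12685 in WT in space, against 1159 and 1383 in FG and 816 and 1134 in WT on the ground. The gene second most like CAT3 was GI (AT1G22770), a clock-regulated flowering gene that peaks late in the day (r = 0.948), after the plasma membrane polypeptide gene AT4G20260 (r = 0.971) and before VIP5 (AT1G61040, r = 0.945). GI had 367 and 309 in FG and 310 and 331 in WT in space under the SD, against 1748 and 717 in FG and 1344 and 1197 in WT on the ground. Under the LD it had 33.2 and 42.9 in FG and 20.7 and 1.45 in WT in space, all absent, against 935 and 1108 in FG and 849 and 860 in WT on the ground. In Arabidopsis CAT2 and CAT3 transcripts are also known to cycle over the day with different phases, and the part of the clock in these differences was not tested. CAT2 and CAT3 had r = -0.778 with each other.

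Some leaf marker genes were called higher in space. Of 9 probe sets tested, 3 were called higher under the SD and 5 under the LD with both genotypes averaged, and none lower, and under the SD 0 were called in FG and 1 in WT. Over all probe sets, 3.43% were called higher under the SD and 13.5% under the LD on average, with 2.08% and 7.24% lower. Under the SD 0.917% of all were called in FG and 1.87% in WT. GLDP1, a glycine decarboxylase of photorespiration, had a log2 fold change of 1.93 ± 0.39 under the SD (SE, adjusted p = 0.0144) and 5.01 ± 0.39 under the LD (adjusted p = 1.71e-05) on average. CA1, a carbonic anhydrase, had 0.79 ± 0.81 under the SD (adjusted p = 0.581) and 4.45 ± 0.81 under the LD (adjusted p = 0.00229). PSBS, the photosystem protein that dissipates excess light, had 2.48 ± 0.38 under the SD (adjusted p = 0.0052) and 4.99 ± 0.38 under the LD (adjusted p = 1.53e-05), and the Calvin cycle kinase PRK had 1.54 ± 0.79 under the SD (adjusted p = 0.237) and 3.78 ± 0.79 under the LD (adjusted p = 0.0045). The call of GLDP1 under the SD ended without WT-SD-sp replicate 1 (adjusted p = 0.0758). That call also ended with only the arrays compared (adjusted p = 0.0835). The part of these genes in the difference of CAT2 was not tested.

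CAT1, the third catalase, is weak in leaves and known to respond to abscisic acid. In SD plants its signals were 3159 and 2731 in FG and 1736 and 1998 in WT in space, against 1075 and 1058 in FG and 1355 and 813 in WT on the ground. In LD plants the signals were 1700 and 999 in FG and 1192 and 912 in WT in space, against 1696 and 1059 in FG and 420 and 873 in WT on the ground. The SD space arrays were the 4 highest of the 16, and under the LD FG overlapped between space and ground. Space and ground were apart under the SD, in either direction, for 15.4% of all probe sets.

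The averaged log2 fold change of CAT1, space over ground, was 1.14 ± 0.29 under the SD (SE, adjusted p = 0.0332, called) and 0.37 ± 0.29 under the LD (adjusted p = 0.34). The call under the SD ended without any 1 array of FG-SD-gr, FG-SD-sp, WT-SD-sp or WT-LD-sp or without WT-SD-gr replicate 2 (adjusted p up to 0.103), and with 4 of 9 other settings. CAT1 was also the 1 gene called between daylengths: SD over LD in space, averaged over genotypes, it had 1.00 ± 0.29 (adjusted p = 0.0384), which ended without any 1 of 9 arrays (adjusted p up to 0.144): either array of FG-SD-gr, FG-SD-sp, WT-SD-sp or WT-LD-sp, or FG-LD-sp replicate 2.

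APX1, the cytosolic ascorbate peroxidase, had lower mean signals in space in all 4 comparisons, and the difference was called under the SD with both genotypes averaged. Under the SD its signals were 5294 and 4878 in FG and 5343 and 5599 in WT in space, against 18787 and 14251 in FG and 25106 and 9980 in WT on the ground. Under the LD they were 7953 and 5982 in FG and 10188 and 7004 in WT in space, against 10464 and 15144 in FG and 24012 and 12463 in WT on the ground. Within each daylength every space array lay below every ground array, by little under the LD (10188 against 10464). Of all probe sets, 15.4% under the SD and 34.2% under the LD were apart in this way, in either direction. The SD space arrays were the lowest and most even for APX1, between 4878 and 5599.

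The averaged log2 fold change of APX1, space over ground, was -1.61 ± 0.31 under the SD (SE, adjusted p = 0.0125, called), a 3.05-fold difference, and -0.95 ± 0.31 under the LD (adjusted p = 0.036), under 2-fold and not called. The call under the SD ended without FG-SD-sp replicate 2 (adjusted p = 0.0535) or WT-SD-sp replicate 1 (adjusted p = 0.061). Under the LD it was made without FG-LD-gr replicate 1 (-1.08, adjusted p = 0.0447) or WT-LD-gr replicate 2 (-1.19, adjusted p = 0.0264). With median centring the averaged value under the LD was also called (-1.26, adjusted p = 0.0195). With 1 genotype at a time none was called. WT under the SD had -1.53 ± 0.44 (adjusted p = 0.0956), and -2.20 without WT-SD-gr replicate 2 (adjusted p = 0.0226). FG under the SD had -1.69 ± 0.44 (adjusted p = 0.103), and was called without either WT-SD-gr array (adjusted p = 0.048).

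Some heat shock genes were called lower in space. HSP90.1 (AT5G52640), a heat-inducible chaperone, was among the 3 genes most like APX1 (r = 0.941), with AT5G60300, a lectin receptor kinase (r = 0.952), and AT1G77840, a translation initiation factor (r = 0.948). HSP90.1 had 131 and 166 in FG and 137 and 221 in WT in space under the SD, against 2047 and 745 in FG and 14529 and 971 in WT on the ground. WT-SD-gr replicate 1 and WT-LD-gr replicate 1 had the highest HSP90.1 (14529 and 7298) and the highest APX1 (25106 and 24012) of the 16 arrays. Of 17 heat shock factor and chaperone probe sets, 12 were tested, of which 1 rose and 5 fell under the SD and none rose and 6 fell under the LD with both genotypes averaged. Over all probe sets, 3.43% rose and 2.08% fell under the SD, and 13.5% rose and 7.24% fell under the LD. Their summed signal over the 17 was 4750 to 8791 on space arrays and 11860 to 76415 on ground arrays. Averaged log2 fold changes were -5.03 ± 0.75 under the SD and -5.96 ± 0.75 under the LD for HSP70, -4.07 ± 0.53 and -5.52 ± 0.53 for the coactivator MBF1C, -3.75 ± 0.82 and -3.87 ± 0.82 for HSP90.1, and -3.41 ± 0.80 and -3.63 ± 0.80 for the heat shock factor HSFA2 (SE), each called. Both HSFA2 values are bounds (or below), since its signal was under 75 on all 8 space arrays. Under the SD the call of HSP90.1 ended without any 1 array of FG-SD-sp or WT-SD-sp or without FG-SD-gr replicate 1 (adjusted p up to 0.0945), and that of HSFA2 without any 1 array of FG-SD-sp, WT-SD-sp or WT-LD-sp or without replicate 1 of FG-LD-sp, FG-SD-gr or WT-SD-gr (adjusted p up to 0.102). Both calls also ended with no filter (adjusted p = 0.068 for HSP90.1 and 0.0828 for HSFA2). With only the arrays compared they ended as well (adjusted p = 0.0663 and 0.0648). The part of these genes in the difference of APX1 was not tested.

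The 2-Cys peroxiredoxins A and B are thiol peroxidases of the chloroplast and near copies of each other, each with its own probe set. For 2-Cys Prx A, signals under the SD were 1550 and 2549 in FG and 3899 and 2500 in WT in space, against 972 and 1378 in FG and 369 and 1891 in WT on the ground. In LD plants the signals were 3028 and 3988 in FG and 4278 and 4864 in WT in space, against 4668 and 1252 in FG and 579 and 929 in WT on the ground. FG-LD-gr replicate 1, at 4668, stood as high as the space arrays, so space and ground overlapped in FG under the LD and were apart in the other 3 comparisons. There, 43.2% (FG, SD), 47.6% (WT, SD) and 61.9% (WT, LD) of all probe sets were apart in either direction.

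The log2 fold change of 2-Cys Prx A, space over ground, was 2.64 ± 0.73 in WT under the LD (SE, adjusted p = 0.0307), a call that ended without either array of WT-LD-gr or WT-LD-sp or without FG-LD-sp replicate 1 (adjusted p up to 0.156). In FG under the LD it was 0.52 ± 0.73 (adjusted p = 0.678), and -0.43 without FG-LD-gr replicate 2. Averaged under the LD it was 1.58 ± 0.52 (adjusted p = 0.0366), a call that held only without FG-LD-gr replicate 1 or either WT-SD-gr array and ended without any other 1 array. That call also ended with median centring (1.27, adjusted p = 0.0552) and with no filter (adjusted p = 0.101). Averaged under the SD it was 1.34 ± 0.52 (adjusted p = 0.126), and 1.93 without WT-SD-gr replicate 2 (adjusted p = 0.0262), with WT alone at 3.08 then (adjusted p = 0.0387).

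For 2-Cys Prx B, signals under the SD were 530 and 639 in FG and 1057 and 803 in WT in space, against 559 and 334 in FG and 230 and 575 in WT on the ground. Under the LD they were 1360 and 1831 in FG and 1588 and 1671 in WT in space, against 1069 and 420 in FG and 505 and 361 in WT on the ground. Under the LD all space arrays lay above all ground arrays, and in FG under the SD space and ground overlapped. Space and ground were apart under the LD, in either direction, for 34.2% of all probe sets.

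The averaged log2 fold change of 2-Cys Prx B, space over ground, was 1.58 ± 0.35 under the LD (SE, adjusted p = 0.00625), a 3.0-fold difference, and leaving out any 1 array kept the call. In WT it was 1.93 ± 0.50 (adjusted p = 0.0228), a call that ended without any 1 array of WT-LD-gr or WT-LD-sp (adjusted p up to 0.129). In FG it was 1.24 ± 0.50 (adjusted p = 0.118), and 1.91 without FG-LD-gr replicate 1 (adjusted p = 0.0438). Averaged under the SD it was 0.89 ± 0.35 (adjusted p = 0.135), and 1.22 without WT-SD-gr replicate 2 (adjusted p = 0.0469).

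The 3 genes most like 2-Cys Prx A over the 16 arrays encode ribosomal proteins, AT1G48350 (r = 0.974), AT1G35680 (r = 0.973) and AT3G15190 (r = 0.963). Those most like 2-Cys Prx B were the pyruvate transporter gene BASS2 (AT2G26900, r = 0.971), APG1 (AT3G63410, r = 0.967), a methyltransferase of plastoquinone and tocopherol synthesis, and SKB1 (AT4G31120, r = 0.952), a protein methyltransferase. 2-Cys Prx A and B had r = 0.887 with each other, and CAT3 had r = -0.852 with 2-Cys Prx B. NTRC, the thioredoxin reductase that supplies electrons to these peroxiredoxins, had 736 and 835 in FG and 827 and 854 in WT in space under the SD, against 349 and 879 in FG and 361 and 419 in WT on the ground. Under the LD NTRC had 2053 and 2125 in FG and 1711 and 1766 in WT in space, against 459 and 506 in FG and 391 and 530 in WT on the ground. Its averaged log2 fold change was 0.81 ± 0.25 under the SD (SE, adjusted p = 0.0654) and 2.02 ± 0.25 under the LD (adjusted p = 2.77e-04, called). NTRC was picked after its values were seen.

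Of 42 other genes of the ascorbate-glutathione cycle and of scavenging, 39 passed the filter, on 38 probe sets. With both genotypes averaged, 3 rose and 1 fell in space under the SD, and 11 rose and 3 fell under the LD, with medians of 0.16 and 0.36 beside 0.08 and 0.08 over all probe sets. Over all probe sets, 3.43% rose and 2.08% fell under the SD, and 13.5% rose and 7.24% fell under the LD. The probe set shared by PRXIIC and PRXIID, cytosolic type II peroxiredoxins whose signals cannot be separated, had 1257 and 600 in FG and 255 and 3348 in WT in space under the SD, against 7918 and 13707 in FG and 11141 and 11154 in WT on the ground. Under the LD PRXIIC and PRXIID had 1172 and 1465 in FG and 157 and 226 in WT in space, against 18296 and 16158 in FG and 4714 and 20115 in WT on the ground. The averaged log2 fold change for PRXIIC and PRXIID was -3.59 ± 0.70 under the SD (SE, adjusted p = 0.0128) and -4.70 ± 0.70 under the LD (adjusted p = 7.32e-04). The call under the SD ended without FG-SD-sp replicate 2, with only the arrays compared (adjusted p = 0.0633) and with array weights (adjusted p = 0.0856).

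GPX7, a chloroplast glutathione peroxidase, had 219 and 65.2 in FG and 71.0 and 77.7 in WT in space under the SD, against 31.3 and 54.2 in FG and 31.7 and 42.2 in WT on the ground. Under the LD GPX7 had 943 and 877 in FG and 505 and 599 in WT in space, against 38.2 and 36.9 in FG and 58.1 and 13.6 in WT on the ground. No LD ground array had a present call for GPX7, so the log2 fold change under the LD was at least 3.60 in FG (adjusted p = 4.24e-04) and at least 2.87 in WT (adjusted p = 0.00103). PRXQ, a chloroplast peroxiredoxin, averaged 0.78 ± 0.64 under the SD (SE, adjusted p = 0.467) and 3.06 ± 0.64 under the LD (adjusted p = 0.0045). TL29, a thylakoid lumen protein related to ascorbate peroxidases, averaged 3.24 ± 0.50 under the SD (adjusted p = 0.0052) and 2.60 ± 0.50 under the LD (adjusted p = 0.00282), and was thus called in both daylengths.

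Sorted by compartment from general knowledge, a split made after the values were seen, 12 chloroplast probe sets of this list and 8 cytosolic ones had medians on opposite sides of 0, a difference that was not tested. Of the chloroplast ones, 8 were called higher and none lower under the LD, where 13.5% of all probe sets were called higher and 7.24% lower. All 12 were above 0 there, with a median log2 fold change of 1.39. Under the SD 3 were called higher and none lower, beside 3.43% and 2.08% of all, with 11 above 0, SAPX at -0.29 and a median of 0.91. Of the cytosolic ones, 1 was called higher (GR1, a glutathione reductase) and 3 lower under the LD, with a median of -0.94, and none higher and 1 lower under the SD, with a median of -0.60. The cytosolic ones lower under the LD were that of PRXIIC and PRXIID, APX6 and GPX2. None of the 10 genes was part of this split. Under the LD the chloroplast enzymes CSD2, 2-Cys Prx A and 2-Cys Prx B averaged -0.49, 1.58 and 1.58, and the cytosolic CSD1 and APX1 -0.84 and -0.95. FSD1, given no compartment here, averaged 2.40 ± 1.47 (SE), with a ground array set to the floor.

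**Figure D4:**
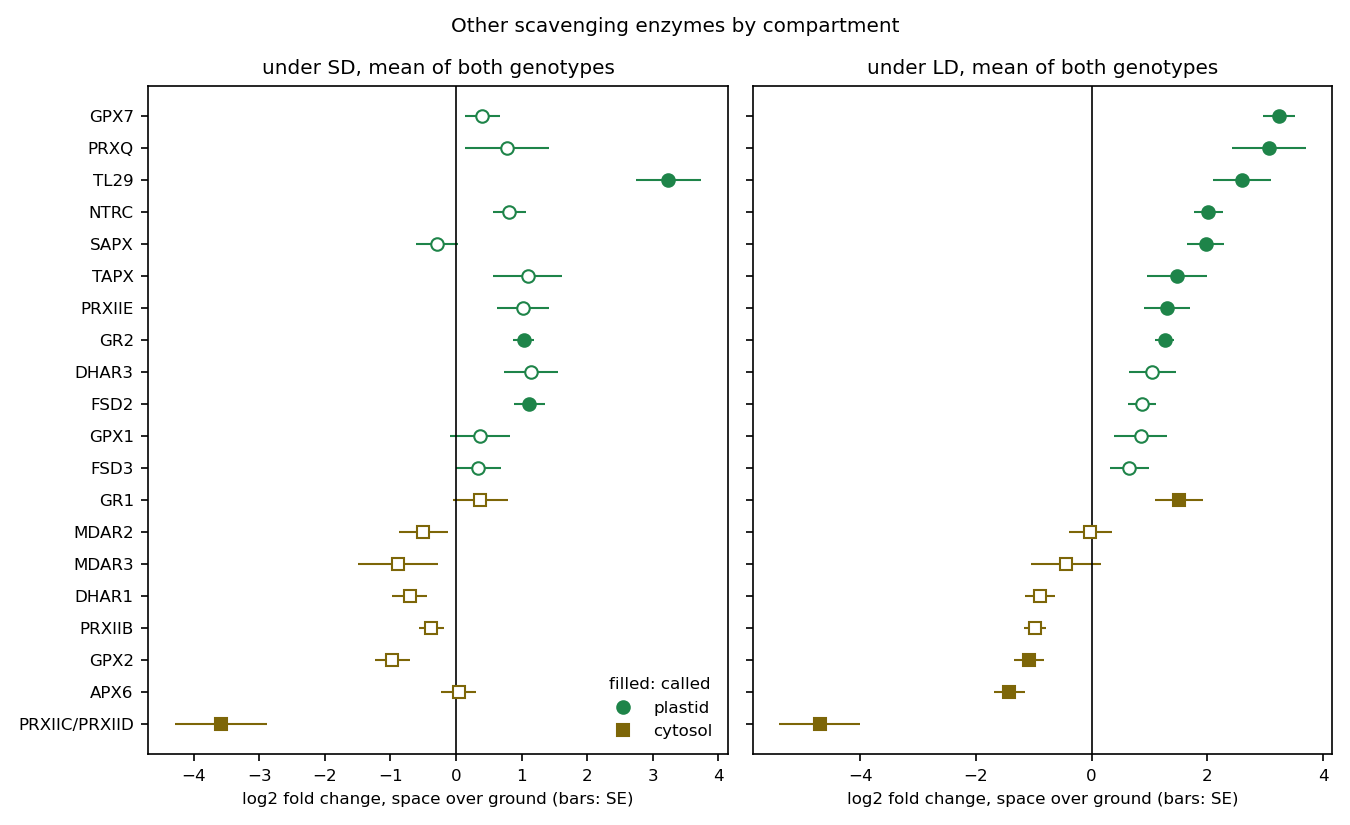
Log2 fold change of space over ground (horizontal axis, bars are standard errors of the fit), averaged over FG and WT, for 20 probe sets of other scavenging enzymes, under the SD (left) and under the LD (right); circles are chloroplast enzymes, squares cytosolic ones, and filled symbols were called. Under the LD all 12 circles lie above 0, and the probe set of PRXIIC and PRXIID lies lowest at -4.70.

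Enzymes that make hydrogen peroxide or superoxide gave calls only with both genotypes averaged. Of 14 listed, 11 passed the filter on 9 probe sets, with none called in any of the 4 comparisons of 1 genotype. With both averaged none rose and 1 fell under the SD, where 3.43% of all probe sets rose and 2.08% fell. Under the LD 1 rose and 2 fell, where 13.5% of all rose and 7.24% fell. The gene that rose under the LD was glycolate oxidase, the photorespiratory source of the hydrogen peroxide that CAT2 removes, on a probe set shared by GOX1 and GOX2, with 0.93 ± 0.47 under the SD (SE, adjusted p = 0.228) and 1.83 ± 0.47 under the LD (adjusted p = 0.0118). GOX1 was picked after its values were seen.

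Genes known to be induced by reactive oxygen went in both directions. Of 13 tested, none rose and 2 fell under the SD and 3 rose and 2 fell under the LD with both genotypes averaged, with medians of -0.73 and 0.39. Over all probe sets, 3.43% rose and 2.08% fell under the SD, and 13.5% rose and 7.24% fell under the LD. BAP1, an inhibitor of cell death that singlet oxygen induces, averaged -1.62 ± 0.38 under the SD (SE, adjusted p = 0.0265) and -2.65 ± 0.38 under the LD (adjusted p = 6.23e-04). The mitochondrial stress gene OM66 averaged -1.86 ± 0.30 under the SD (adjusted p = 0.00691) and -1.41 ± 0.30 under the LD (adjusted p = 0.00535). With spike-in scaling the LD value of OM66 was -0.85 (adjusted p = 0.0741) and not called. The glucosyltransferase UGT74E2 averaged 0.36 ± 0.42 under the SD (adjusted p = 0.622) and 1.38 ± 0.42 under the LD (adjusted p = 0.0268), and the glutathione transferase GSTU24 averaged 1.56 ± 0.48 under the SD (adjusted p = 0.0648) and 1.83 ± 0.48 under the LD (adjusted p = 0.0138). With no filter the calls of BAP1 under the SD (adjusted p = 0.0759) and UGT74E2 under the LD (adjusted p = 0.076) ended. That of BAP1 also ended with only the arrays compared (adjusted p = 0.0863), and that of UGT74E2 with median centring (adjusted p = 0.0572). The call of BAP1 under the SD ended without FG-SD-gr replicate 2, FG-SD-sp replicate 2, WT-SD-gr replicate 2 or either WT-SD-sp array (adjusted p up to 0.115). Under the LD the call of UGT74E2 ended without FG-LD-gr replicate 2, FG-LD-sp replicate 1, either WT-LD-gr array or WT-LD-sp replicate 2 (adjusted p up to 0.113), and that of GSTU24 without FG-LD-sp replicate 1, WT-LD-gr replicate 2 or WT-LD-sp replicate 1 (adjusted p up to 0.0589).

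Daylength and genotype gave fewer calls among the 9 genes. SD against LD on the ground called none of them in FG (0% of all probe sets were called), in WT (0.0210%) or averaged (0.0210%), with 2, 0 and 1 of them at an unadjusted p under 0.05 and 2-fold, beside 3.07%, 2.62% and 1.56% of all. SD against LD in space called none in FG (4.15%) and WT (2.78%), where 2 and 0 passed at an unadjusted p under 0.05 and 2-fold beside 12.7% and 9.25% of all, and 1, CAT1, averaged (9.12%). The methods' t-test called 1 in FG (0.931% of all) and 0 in WT (0.623%) on the ground, and 1 in FG (8.13%) and 2 in WT (7.32%) in space. FSD1 in FG on the ground had the widest of these differences, a log2 value of -5.32 or below for SD over LD (adjusted p = 0.643), a bound since no FG-SD-gr array had a present call. CAT3 in space was 0.77 ± 0.16 higher under the SD averaged over genotypes (SE, adjusted p = 0.0107), past the p threshold and under 2-fold.

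Whether the response to space differed by daylength was tested as a difference of differences. None of the 9 was called in FG (0.840% of all probe sets were), in WT (0.672%) or averaged (4.36%), where 1, 0 and 0 passed at an unadjusted p under 0.05 and 2-fold, beside 12.3%, 9.86% and 12.3% of all. CAT3 was the nearest, with a response 0.85 ± 0.23 log2 units less negative under the SD than under the LD (SE, adjusted p = 0.0614), and 0.73 to 0.96 with any 1 array left out. That CAT2 was called under the LD and not under the SD is therefore not a difference shown, at -1.20 ± 0.82 (adjusted p = 0.436). APX1 had -0.66 ± 0.44 (adjusted p = 0.427).

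The response of FG minus that of WT called none of the 9 under the SD (0% of all probe sets) or the LD (0.0350%), and none passed at an unadjusted p under 0.05 and 2-fold, which 3.07% and 4.33% of all did. The widest was 2-Cys Prx A under the LD, at -2.11 ± 1.04 (SE, adjusted p = 0.95). FG against WT called none in space under the SD (0.0140%) or the LD (0.00700%), or on the ground under the SD (0.0140%) or the LD (0.0280%), where CAT1 and 2-Cys Prx A alone passed at an unadjusted p under 0.05 and 2-fold, both on the ground under the LD and both higher in FG. Of all probe sets, 1.20% and 2.32% passed that rule in space under the SD and the LD, and 4.52% and 4.05% on the ground. The methods' t-test called none of the 9 genes in these 4 comparisons, beside 0.777% and 1.47% of all in space and 0.686% and 1.11% on the ground under the SD and the LD. CAT1 there had 1.15 ± 0.40 (adjusted p = 0.49) and 2-Cys Prx A had 1.72 ± 0.73 (adjusted p = 0.589).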

How the data were processed

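Leaf RNA was hybridised to 16 Affymetrix ATH1 arrays, 2 per group. The authors computed MAS 5.0 signals, scaled each array to a mean of 500 with 2% trimmed at each end, and deposited them as log2 values with detection calls. The floor of 75 in the methods is not applied in the deposited values. The series value table holds the same numbers (largest difference 5e-09) and was not used. Genes were named by the deposited annotation, and all 10 locus tags matched the RefSeq table of TAIR10.1. The files name no genome build, so coordinates were not used. Of all probe sets, 21450 name 1 gene, 1110 several and 250 none. Here, signals under 75 were raised to 75 on the log2 scale, a probe set stayed in (14286 did, without the 64 controls) when some group had both signals over 75, and limma 3.58.1 (lmFit, eBayes) in R 4.3.3 was fitted with 1 mean per group (8 residual degrees of freedom, 2.75 prior) and 21 contrasts. Calls needed a Benjamini-Hochberg adjusted p under 0.05 and 2-fold. In simulated data for space against ground in WT under LD, 0% of 2-fold, 73% of 4-fold and 85.5% of 8-fold changes were recovered. Only 200 probe sets were changed there, while 2386 were called in the data, and a call also needed a fitted 2-fold difference. The rates are therefore not the sensitivity of the real calls.

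The 10 genes and all gene lists were chosen with earlier results of these data known. Named were all 10 genes, from each list up to 4 called genes with the largest change, and up to 3 genes most like each of the 10; others are said to be picked after their values were seen. Lists were those of scavenging, copper and iron, sources, induced genes, heat shock, and leaf, root and flower organ markers; alternatives for their genes were added after the data were seen. PAA1 alone had several probe sets, of which the brightest was used. Other filters, scalings, fits and tests, and each array left out in turn, are in the closing section, and for some genes of the lists beside their values.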

Additional observations from a re-analysis of the deposited data

Results flagged for a closer look

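No response of the 9 tested genes differed by daylength or genotype past the threshold, and groups of 2 arrays were too small to test single arrays as outliers. Among the named genes of the lists, the following responses to space differed between daylengths, as SD minus LD of the log2 fold change. GPX7 differed by -2.83 ± 0.53 in FG (SE, adjusted p = 0.0397), by -2.85 ± 0.53 in WT (adjusted p = 0.0407) and by -2.84 ± 0.38 on average (adjusted p = 0.00285) as fitted. All 8 ground signals and some SD space signals of GPX7 were under the floor of 75, so these sizes depend on the floor. COPT2 differed by -3.01 ± 0.42 in FG (adjusted p = 0.013), by -2.73 ± 0.42 in WT (adjusted p = 0.0191) and by -2.87 ± 0.30 on average (adjusted p = 7.42e-04). All SD signals of COPT2 were under the floor, so its SD response is 0 by construction and these values repeat its LD responses. The COPT2 call in FG ended without FG-SD-sp replicate 1 (adjusted p = 0.0512), and that in WT without WT-LD-gr replicate 2, WT-LD-sp replicate 2 or either WT-SD-sp array (adjusted p up to 0.0981). With log2(signal + 32) and with only the arrays compared, both COPT2 calls ended (adjusted p = 0.0568 and 0.0685 in FG, 0.166 and 0.119 in WT), and that in WT also ended with median centring (0.0726) and array weights (0.0789). GLDP1 differed by -3.08 ± 0.55 on average (adjusted p = 0.0124) and PSBS by -2.51 ± 0.54 (adjusted p = 0.0267), and the call of PSBS ended without any 1 of 11 arrays, all but FG-LD-gr replicate 1 and the SD ground arrays (adjusted p up to 0.0815). SEP2, a flower organ gene, differed in FG by 1.76 ± 0.23 (adjusted p = 0.00964), a call that ended with log2(signal + 32) (0.239) and with only the arrays compared (0.0785). The calls of GPX7 ended in FG with 5 of the other settings (adjusted p up to 0.148) and in WT with 6 (up to 0.115), and that of PSBS with no filter (0.0753). The calls of GPX7 in FG and in WT each ended without any 1 of 14 arrays, all but the FG-SD-sp arrays (adjusted p up to 0.152 in FG and 0.191 in WT).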

How the results depend on the processing

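For 58 fold changes of the 9 genes, 10 other settings and 16 arrays left out 1 at a time gave 1485 values, of which 1358 kept their direction and side of the threshold, 83 lost the call, 26 gained it, 1 moved and 17 changed direction, none of them called. The cause was not tested. With the replicate block, which treats same-numbered arrays as pairs, space against ground called 0 of 9 genes in FG and 0 in WT under the SD, 2 in FG and 4 in WT under the LD, and averaged 2 under the SD and 4 under the LD, as without it, and no other count changed. Same-numbered arrays deviated together above r = 0.1 in 14 of 28 pairs of groups (r from -0.28 to 0.50, median 0.08).

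Counts of called genes for space against ground that moved by over 1.5 times were the following. In FG under the SD (0), spike-in scaling gave 1 and the methods' t-test 2. In WT under the SD (0), they gave 3 and 1. In FG under the LD (2), no filter, the present-call filter and median centring each gave 1. In WT under the LD (4), no filter gave 1. Smaller moves were 3 with quantile normalization in WT under the LD, and 3 with no filter and with spike-in scaling averaged under the LD (4). Median centring kept that averaged count under the LD at 4, but with APX1 called in place of 2-Cys Prx A. Averaged under the SD (2), no filter, median centring and array weights gave 1, only the arrays compared gave 0 and spike-in scaling 5. Between daylengths on the ground, FG (0) had 1 with the t-test. For SD against LD in space, FG (0) had 1 with median centring, only the arrays compared and the t-test and 2 with array weights, WT (0) had 2 with only the arrays compared and the t-test, and the average (1) had 0 with log2(signal + 32), no filter and spike-in scaling, 2 with median centring and quantile normalization, and 4 with only the arrays compared and array weights.

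Leaving out 1 array gave 0 to 1 in FG under the SD, 0 to 2 in WT under the SD, 1 to 2 in FG under the LD, 1 to 4 in WT under the LD, 0 to 3 averaged under the SD, 3 to 5 averaged under the LD, 0 to 1 for SD against LD in space in FG, 0 to 2 for its average, 0 to 1 for the averaged difference of responses, and 0 for the others. Directions changed for uncalled values of space over ground. Under the LD with median centring CSD2 in WT was -0.28 (0.06 as reported). With spike-in scaling CAT3 in WT under the SD was 0.06 (-0.54), CAT1 in FG under the LD 0.43 (-0.04) and CSD2 averaged under the LD 0.06 (-0.49). With 1 array left out, CSD1 under the LD ranged over -1.24 to 0.17 in FG and -2.55 to 0.23 in WT, and CSD2 over -2.28 to 0.19 in FG, -1.36 to 1.48 in WT and -1.20 to 0.22 averaged. CSD2 in WT under the SD ranged over -2.13 to 0.46, CAT1 in FG under the LD over -0.42 to 0.34 and 2-Cys Prx A in FG under the LD over -0.43 to 1.47. Signals near the floor of 75 limit FSD1, COPT2 and GPX7, and APX2 lies under it throughout.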
